A study of Sus scrofa with 14 samples.

Results

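Day 8 progenitors derived from porcine pluripotent cells were compared with muscle cells grown from piglet muscle, using the 5 libraries of these groups out of 14 in the whole table. The pgEpiSCs-MPCs group holds 2 libraries of wild-type muscle progenitor cells made from pgEpiSCs, a line of pre-gastrulation epiblast stem cells that is kept on mouse feeder cells. They were collected at Day 8 of a serum-free protocol that began with CHIR99021, an activator of Wnt signalling, together with SB431542, an inhibitor of TGF-β receptors, went on, per the study's methods, to CHIR99021 with FGF2 and the BMP receptor inhibitor LDN193189, then to HGF, IGF-1, FGF2 and LDN193189, and then to IGF-1 alone, with further media for the later stages. The study stained its pgEpiSCs-MPCs and analysed them by flow cytometry in the medium with HGF, IGF-1, FGF2 and LDN193189, and the labels of these libraries give the day but no medium. The MPC-Dif group holds 3 libraries of wild-type porcine muscle satellite cells taken from the long back muscle of 1-week-old Nongda Xiang pigs, expanded in fetal bovine serum with FGF2, and collected at Day 4 of differentiation in low horse serum. The satellite cells were purified by how fast they attach to plastic, so that other muscle-resident cells may remain. The line of origin, developmental stage, medium, serum and days of culture all differ between these groups, and their contributions to any difference cannot be told apart. The study's methods speak of biological replicates without saying whether these were separate cultures or animals. The p-values of single genes measure a spread between libraries of the same group, estimated over all 14 libraries together, part of which may be technical. The other 9 libraries are pgEpiSCs at low passage (pgEpiSCs-Low, 3), at high passage (pgEpiSCs-high, 3), and muscle cells made from them by Day 44 (pgEpiSCs-MCs, 3); their levels are given beside some genes.

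The unit was TPM, a transcript level corrected for gene length and scaled to the same total in each library. A gene was kept if 50% or more of the libraries in a group exceeded 0.5 TPM, which held for 14957 of 15031 genes over all 5 groups and for 14160 genes when only the compared groups were considered. Of the latter, 11462 passed this level in both groups, 1962 in pgEpiSCs-MPCs alone and 736 in MPC-Dif alone. With 2 libraries pgEpiSCs-MPCs needed only 1 above the level, whereas MPC-Dif with 3 needed 2. The rule was thus laxer for pgEpiSCs-MPCs, and these counts do not compare the groups on equal terms. A gene above this level in 1 of the compared groups alone had little room to differ the other way, so the counts of the gene lists below are descriptions, and for lists rich in such genes the count over genes above the level in both groups is given as well. Every difference below is pgEpiSCs-MPCs minus MPC-Dif on log2(TPM + 1), a scale that understates changes of genes near 0, and a gene was said to pass when its adjusted p was below 0.05. Read depth could not be read from these values.

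In the embryo, skeletal muscle of the trunk descends from somites, which form from presomitic mesoderm under Wnt, FGF and Notch signals. Progenitors there carry PAX3 and PAX7, commit through MYF5 and MYOD1, and differentiate through MYOG, after which fusion proteins and sarcomere genes come on. PAX3 and PAX7 are also genes of the dorsal neural tube, where they are found beside ZIC, LMX1 and WNT1 genes, so the genes around them matter for reading them.

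The labels were set against marker genes. The 6 muscle progenitor markers were PAX7, PAX3, MYF5, MYOD1, NCAM1 and CDH15. In pgEpiSCs-MPCs they summed to between 212 and 232 TPM, against 39.1 to 45.0 TPM in MPC-Dif. MYF5 was lower at Day 8 and CDH15 did not pass, so the sum does not speak for each member. In pgEpiSCs-MPCs 6 neural markers (ZIC1, SOX2, PAX6, NES, TUBB3 and DCX) summed to between 2010 and 2070 TPM, against 209 to 222 TPM in MPC-Dif. The Day 8 libraries thus held muscle progenitor, neural and smooth muscle markers together, and the group is called by its library name below. In MPC-Dif the 10 skeletal muscle markers summed to between 788 and 861 TPM, against 53.3 to 61.8 in pgEpiSCs-MPCs, although PAX7 and MYOD1 among them were higher at Day 8. The 7 fibroblast markers (PDGFRA, COL1A1, COL1A2, COL3A1, DCN, LUM, THY1) summed to between 25900 and 26900 TPM in MPC-Dif, against 125 to 128 TPM. Smooth muscle markers were high in both groups, at 1910 to 2000 TPM in pgEpiSCs-MPCs and 3990 to 5100 TPM in MPC-Dif. Endothelial and immune marker sums stayed at or below 33.4 TPM in either group, and SOX10 and FOXD3, which define migrating neural crest, were listed at 0 in both Day 8 libraries. The part that fibroblasts, neural cells or other cells take in the differences below was not tested. In such bulk libraries, fewer cells of a type and less RNA per cell cannot be told apart.

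The groups differed at most of the genes measured. In limma, 11782 of 14957 genes passed (78.8%), of which 7581 were higher in pgEpiSCs-MPCs (50.7% of genes tested) and 4201 were lower (28.1%). Beyond a log2 difference of 2, 1825 genes were higher (12.2%) and 1213 were lower (8.11%). The 2 and 3 libraries did not overlap at 12776 genes (85.4%), 8215 higher (54.9%) and 4561 lower (30.5%), so that passing the test by itself sets no gene apart, and the counts of the gene groups below are to be read against these shares. Correlations of log2 values were 0.994 between the Day 8 libraries and 0.995 to 0.996 among the MPC-Dif libraries, but 0.713 to 0.715 between the groups, which describes genes within libraries and is not a test. The median over all genes was 0.34, and scaling by median-of-ratios brought it to 0.04 and quantile normalization to 0.06. The share of passing genes that were higher, 64.3%, then became 50.9% and 53.1%. Small differences of either sign therefore depend on the scaling, and the genes described here are mostly much larger than this shift.

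The 12 genes with the largest differences in each direction, among those with a symbol and no overlap, showed what led each group. Higher at Day 8 were OC90, CRABP1, FZD10, CD24, RSPO3, CDH6, CXCR4, WNT8B, CNMD, MSI1, DRAXIN and COL2A1. CXCR4, the chemokine receptor that guides migrating progenitors, was at 708 and 696 TPM against 1.93, 1.17 and 1.01 TPM (log2 difference 8.23 ± 0.15 SE, adjusted p = 4.8e-15). MSI1, an RNA-binding protein of neural stem cells, was at 481 and 518 TPM against 1.04, 0.526 and 0.99 TPM (log2 difference 8.09 ± 0.10 SE, adjusted p = 1.7e-16). DRAXIN, a repellent of growing axons, was at 268 and 279 TPM against 0, 0 and 0.076 TPM (log2 difference 8.06 ± 0.12 SE, adjusted p = 5.3e-16). Lower were DCN, COL6A3, ASPN, GPNMB, COL6A1, S100A6, ISLR, COL1A1, NUPR1, AEBP1, S100A4 and COL1A2, of which COL6A3, COL6A1, COL1A1 and COL1A2 encode collagen chains. S100A6, a calcium-binding protein of mesenchymal cells, was at 1.22 and 3.58 TPM against 1755, 1894 and 1565 TPM (log2 difference -9.09 ± 0.30 SE, adjusted p = 1.5e-12). AEBP1, which binds collagen, was at 1.75 and 1.54 TPM against 1136, 1145 and 1261 TPM (log2 difference -8.80 ± 0.10 SE, adjusted p = 6.9e-17).

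**Figure D1:**
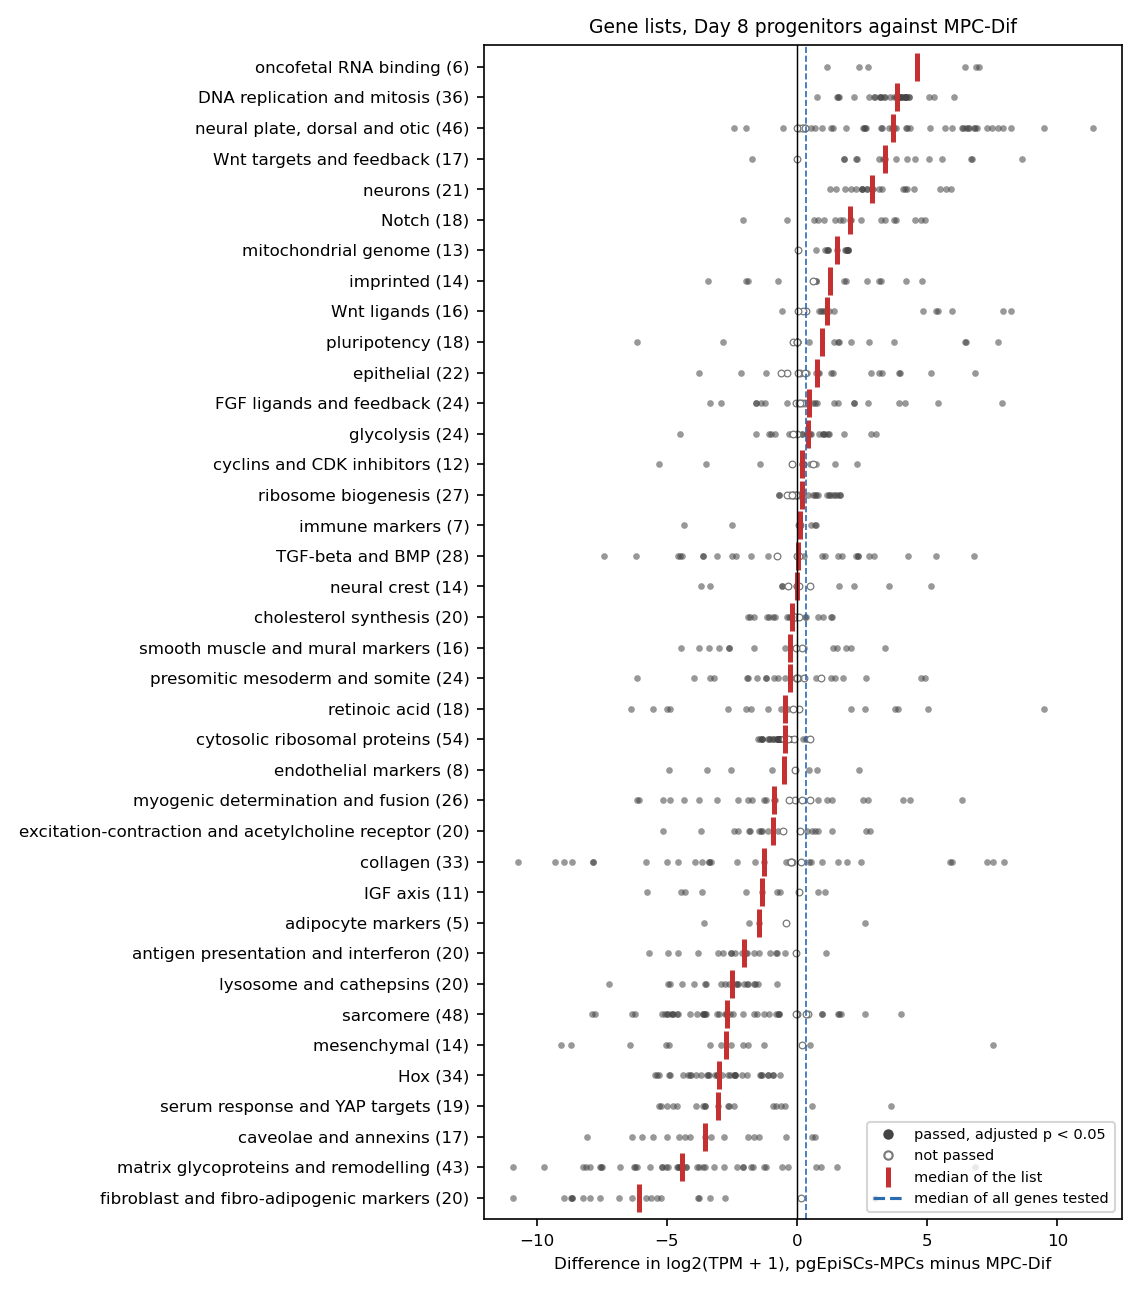
Difference in log2(TPM + 1), pgEpiSCs-MPCs (n = 2) minus MPC-Dif (n = 3), for the tested genes of each list (number in brackets). Filled points passed the limma test, open points did not, red bars are list medians and the dashed line is the median of all genes, 0.34. DNA replication, neural plate and Wnt target genes lie to the right, with medians of 3.85, 3.68 and 3.38, and fibroblast and matrix genes to the left, with medians of -6.07 and -4.42.

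Muscle genes of the differentiated state are described first by their promoters and their RNA together. MyoD-family proteins bind the E-box, and CAGCTG is one of its common forms, reading the same on both strands. In windows from 250 bases before to 50 bases after each RefSeq gene start on Sscrofa11.1, CAGCTG was present in 16.6% of 19547 protein-coding genes, in 8 of 26 tested genes for myogenic determination and fusion, in 15 of 46 sarcomere genes and in 8 of 20 genes of the list for excitation-contraction coupling and the acetylcholine receptor, which also holds MYMK. The windows of MYMK, which encodes the fusion protein myomaker, of CHRNA1, the α-subunit of the muscle acetylcholine receptor, and of MUSK, the kinase that organises the neuromuscular junction, are printed with CAGCTG in capitals. They are shown because they carry the same letters while their RNA levels went in different directions.
MYMK (chr1:273111672-273111971, minus strand): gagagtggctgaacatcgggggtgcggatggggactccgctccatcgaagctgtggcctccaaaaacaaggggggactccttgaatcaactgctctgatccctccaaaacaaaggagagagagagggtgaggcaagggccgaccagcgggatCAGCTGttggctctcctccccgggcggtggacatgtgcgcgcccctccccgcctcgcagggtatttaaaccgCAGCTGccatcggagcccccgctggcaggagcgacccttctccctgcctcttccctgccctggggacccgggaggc
CHRNA1 (chr15:80692207-80692506, minus strand): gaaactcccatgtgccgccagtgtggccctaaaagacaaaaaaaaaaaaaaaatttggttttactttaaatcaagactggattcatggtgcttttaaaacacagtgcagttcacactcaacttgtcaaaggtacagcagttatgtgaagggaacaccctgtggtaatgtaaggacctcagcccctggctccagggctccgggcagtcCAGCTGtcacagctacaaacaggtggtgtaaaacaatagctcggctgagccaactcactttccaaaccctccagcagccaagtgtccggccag
MUSK (chr1:251649901-251650200, plus strand): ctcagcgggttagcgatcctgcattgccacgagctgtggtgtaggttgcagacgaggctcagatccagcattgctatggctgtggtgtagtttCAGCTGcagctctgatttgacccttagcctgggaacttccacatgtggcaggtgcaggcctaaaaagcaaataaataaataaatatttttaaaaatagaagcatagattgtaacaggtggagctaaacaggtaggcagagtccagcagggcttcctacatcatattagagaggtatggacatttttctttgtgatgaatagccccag

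MYMK has 2 copies, starting 98 and 26 bases before the gene start, and the other windows have 1 each. MYMK was at 0.341 and 0.299 TPM in pgEpiSCs-MPCs and at 46.4, 44.9 and 45.8 TPM in MPC-Dif (log2 difference -5.14 ± 0.13 SE, adjusted p = 1.1e-13). MYLPF, a fast-fibre myosin light chain, was at 0.635 and 0 TPM against 271, 311 and 261 TPM (log2 difference -7.78 ± 0.28 SE, adjusted p = 3.2e-12). CHRNA1 was lower as well but well above 0 at Day 8, with 22.7 and 22.2 TPM against 83.9, 90.9 and 76.3 TPM (log2 difference -1.85 ± 0.10 SE, adjusted p = 2.7e-10). MUSK went the other way, with 11.8 and 12.1 TPM in pgEpiSCs-MPCs against 1.53, 0.903 and 0.889 TPM (log2 difference 2.63 ± 0.14 SE, adjusted p = 3.7e-10), and its pgEpiSCs-MPCs libraries both lay above all MPC-Dif libraries. Over the 91 muscle genes of the 3 lists with a window, 23 of 30 with CAGCTG were lower in pgEpiSCs-MPCs and 7 were higher, and of 61 without it 35 were lower and 16 were higher. The TATAAA box, searched on both strands, was present in 10.9% of all windows and in 15 of these genes, of which 12 were lower and 2 were higher. A match only says that the letters are there, and no test was made of it.

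Myogenic regulators changed in both directions. Of 26 genes tested, 8 were higher in pgEpiSCs-MPCs, 14 were lower and 4 did not pass, with a median of -0.87 against 0.34 over all genes. PAX3, the paired-box factor of early muscle and dorsal neural progenitors, was at 118 and 121 TPM in pgEpiSCs-MPCs and 0.898, 0.086 and 0.567 TPM in MPC-Dif (log2 difference 6.35 ± 0.18 SE, adjusted p = 3.6e-13). PAX7, its paralogue in satellite cells, was at 20.6 and 25.5 TPM against 0.153, 0.221 and 0.173 TPM (log2 difference 4.34 ± 0.17 SE, adjusted p = 8.2e-12). Both were thus nearly undetected in the muscle-derived cells and were carried on at Day 44, where pgEpiSCs-MCs averaged 114 TPM of PAX3 and 8.58 TPM of PAX7. EYA2, a transcriptional co-activator, was at 33.2 and 28.3 TPM against 0.707, 1.17 and 0.869 TPM (log2 difference 4.05 ± 0.17 SE, adjusted p = 2e-11). MYOD1, the determination factor, was also higher at Day 8, at 10.4 and 14.8 TPM against 1.2, 1.03 and 0.878 TPM (log2 difference 2.72 ± 0.16 SE, adjusted p = 1.1e-09). The groups did not overlap at any of these 4 genes.

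Other regulators were lower at Day 8. MYOG, the factor that starts terminal differentiation, was at 2.71 and 1.63 TPM in pgEpiSCs-MPCs and 213, 222 and 200.2 TPM in MPC-Dif (log2 difference -6.09 ± 0.22 SE, adjusted p = 4.7e-12). MYF5, the other early determination factor, was at 0.303 and 0.133 TPM against 9.8, 10.8 and 7.79 TPM (log2 difference -3.09 ± 0.26 SE, adjusted p = 4.7e-08), opposite to MYOD1. MEOX2, a homeodomain factor of somite and limb muscle, was at 0.201 and 0.176 TPM against 84.2, 85.8 and 78.9 TPM (log2 difference -6.14 ± 0.15 SE, adjusted p = 7.7e-14). MEF2C and MEF2A, which cooperate with MyoD-family factors, were lower, with log2 differences of -2.27 and -1.90. SIX4, EYA1, CDH15 (the satellite cell adhesion protein M-cadherin) and MSTN (myostatin, an inhibitor of muscle growth) did not pass, and SIX4 was at 18.2 and 16.1 TPM against 20.5, 17.2 and 16.8 TPM.

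**Figure D2:**
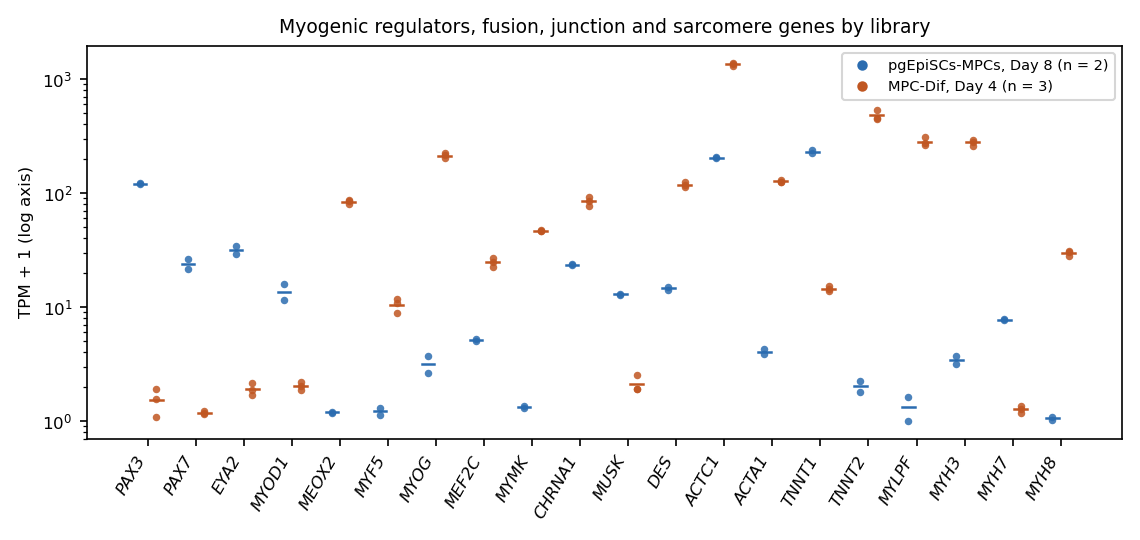
TPM + 1 on a log axis for 20 muscle genes in each library, with a line at the group mean, for pgEpiSCs-MPCs (n = 2) and MPC-Dif (n = 3). PAX3, PAX7, EYA2, MYOD1, MUSK, TNNT1 and MYH7 are higher in pgEpiSCs-MPCs, and the other 13 genes are higher in MPC-Dif.

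Sarcomere genes were mostly lower at Day 8, with 36 of 48 lower, 8 higher and 4 not passing, and a median of -2.70, and over the 21 above 0.5 TPM in both groups 13 were lower and 6 higher. TNNT2, the cardiac-type troponin T that embryonic muscle also uses, was at 1.26 and 0.789 TPM against 447, 533 and 455 TPM (log2 difference -7.89 ± 0.27 SE, adjusted p = 2.5e-12). MYH3, the embryonic myosin heavy chain, was at 2.73 and 2.13 TPM against 281, 292 and 258 TPM (log2 difference -6.34 ± 0.10 SE, adjusted p = 1e-15). MYH8, the perinatal one, was at 0.09 and 0.026 TPM against 26.8, 30.0 and 29.5 TPM (log2 difference -4.81 ± 0.11 SE, adjusted p = 2.9e-14). ACTA1, the skeletal α-actin, was at 2.86 and 3.25 TPM against 124, 129.9 and 123 TPM (log2 difference -4.97 ± 0.16 SE, adjusted p = 1.4e-12). Myosin heavy chain genes are close copies of each other and counting may have split reads between them. TRIM63, TNNI2, MYBPH and LDB3 were listed at 0 in both Day 8 libraries, and MPC-Dif held 35.1, 35.9 and 36.2 TPM of TRIM63, a ubiquitin ligase of the sarcomere, and 28.1, 32.3 and 33.8 TPM of TNNI2, fast troponin I.

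TNNT1, MYH7 and TPM3 were among the sarcomere genes higher at Day 8. TNNT1, the slow-fibre troponin T, was at 221 and 236 TPM in pgEpiSCs-MPCs against 12.8, 14.2 and 13.4 TPM (log2 difference 3.99 ± 0.08 SE, adjusted p = 1.5e-14), above its mean of 36.5 TPM in Day 44 pgEpiSCs-MCs. MYH7, the slow myosin heavy chain, was at 6.63 and 6.83 TPM against 0.286, 0.18 and 0.354 TPM (log2 difference 2.60 ± 0.12 SE, adjusted p = 3.8e-11). TPM3, which encodes slow tropomyosin and also cytoskeletal forms, was at 255 and 251 TPM against 82.9, 87 and 86.4 TPM (log2 difference 1.55 ± 0.05 SE, adjusted p = 1.2e-12). ACTC1, the cardiac α-actin that also serves embryonic muscle, was lower at 199.8 and 205 TPM at Day 8, against 1350.2, 1367 and 1294 TPM in MPC-Dif (log2 difference -2.72 ± 0.20 SE, adjusted p = 1.2e-08) and means of 4.68 TPM and 2.64 TPM in pgEpiSCs-Low and pgEpiSCs-high. TNNC2 and FHL1 did not pass, with FHL1 at 54.4 and 61.5 TPM against 55.5, 59.3 and 64 TPM, and their libraries overlapped.

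Of 16 smooth muscle and mural markers, 6 were higher and 8 lower, with a median of -0.26. ACTA2, the smooth muscle α-actin, was lower at 410.0 and 383 TPM against 2070.1, 2568 and 2742 TPM (log2 difference -2.62 ± 0.17 SE, adjusted p = 3.3e-09). MYH11, the smooth muscle myosin, was low but higher at Day 8, at 3.66 and 3.71 TPM against 0.463, 0.787 and 0.665 TPM (log2 difference 1.52 ± 0.14 SE, adjusted p = 1.7e-07).

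Of 20 genes in the list for calcium handling, coupling and the neuromuscular junction, 11 were lower and 7 were higher, with a median of -0.94, and 4 were higher under quantile normalization. Of the 20, 6 were above 0.5 TPM in MPC-Dif alone, with little room to be higher. Over the 14 above it in both groups, 7 were higher and 5 lower, so no direction is given for the list. The fusion gene MYMK stands in that list too, and without it 10 of 19 were lower with a median of -0.76. SRL (sarcalumenin) was at 0.125 and 0.055 TPM against 13.9, 13.5 and 11.8 TPM (log2 difference -3.69 ± 0.12 SE, adjusted p = 8.5e-13). CASQ2, a calcium buffer of the sarcoplasmic reticulum, was at 3.65 and 4.61 TPM against 25.8, 26.3 and 26.7 TPM (log2 difference -2.42 ± 0.16 SE, adjusted p = 4.8e-09). SCN4A and CACNG1, channel subunits of the adult fibre, were listed at 0 in both Day 8 libraries and between 1.38 and 2.90 TPM in MPC-Dif. JPH1, which ties the reticulum to the surface membrane, was higher with 12.2 and 15.8 TPM against 1.45, 0.953 and 0.971 TPM (log2 difference 2.82 ± 0.15 SE, adjusted p = 4.1e-10), but it was as high in the starting cells, with means of 16.4 and 18.8 TPM in pgEpiSCs-Low and pgEpiSCs-high. ATP2A2, the calcium pump found in most cells, did not pass at 173 and 182 TPM against 178, 163 and 158 TPM.

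Genes of the presomitic mesoderm and somite gave no common direction, with 7 of 24 higher (29.2%, against 50.7% of all genes) and 12 lower (50.0%, against 28.1%). Their median was -0.27, against 0.34 over all genes. Of the 24, 4 were above 0.5 TPM in pgEpiSCs-MPCs alone, 6 in MPC-Dif alone and 3 in neither group. Over the 11 above it in both groups, 4 were higher and 6 lower. The Notch ligand DLL1 was at 76.2 and 82.5 TPM against 1.3, 1.65 and 2.03 TPM (log2 difference 4.92 ± 0.11 SE, adjusted p = 2.9e-14). EPHA4 was at 34.3 and 33 TPM against 5.77, 4.89 and 3.37 TPM (log2 difference 2.63 ± 0.15 SE, adjusted p = 8.1e-10). DLL3 was at 23.5 and 29 TPM and listed at 0 in all 3 MPC-Dif libraries. These genes also serve in the neural tube. TBX6, the presomitic mesoderm factor, was only modestly higher at 7.07 and 10.2 TPM against 3.96, 4.54 and 6.21 TPM (log2 difference 0.71 ± 0.20 SE, adjusted p = 0.00437), and its mean was 10.8 TPM in pgEpiSCs-Low. TBX6 no longer passed under median-of-ratios scaling (log2 difference 0.33), under quantile normalization (0.21) or without pgEpiSCs-MPCs replicate 2 (0.47). TCF15, which marks the epithelial somite, was at 0.801 and 0.938 TPM and listed at 0 in MPC-Dif, which did not pass (adjusted p = 0.106). MEOX1 was at 1.22 and 0.297 TPM against 2.59, 3.03 and 3.17 TPM (log2 difference -1.21 ± 0.18 SE, adjusted p = 2.3e-05), the sclerotome factor PAX1 and FOXC2 were listed at 0 in both Day 8 libraries, and UNCX was at or below 0.055 TPM throughout.

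Dorsal neural plate, midbrain and otic genes were mostly higher at Day 8. Of 46 tested, 37 were higher, 3 were lower, DLX3 and IRX1 among them, and 6 did not pass, with a median of 3.68, and 15 were listed at 0 in every MPC-Dif library. The level of 0.5 TPM was passed in pgEpiSCs-MPCs alone by 25 of the 46, which had little room to be lower, and over the 18 above it in both groups 12 were higher and 2 lower. OC90, which encodes an otoconial matrix protein of the inner ear, was at 2540.5 and 2734 TPM in pgEpiSCs-MPCs and listed at 0 in MPC-Dif, while pgEpiSCs-MCs averaged 55.5 TPM. In the annotation the OC90 span overlaps that of EFR3A, and counting that ignores strand could mix their reads. CRABP1, a retinoic acid binding protein of embryonic neural tissue, was at 1415 and 1417 TPM against 1.64, 1.35 and 0.211 TPM (log2 difference 9.50 ± 0.34 SE, adjusted p = 3.4e-12).

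Several genes of that list are factors of the midbrain and its boundary with the hindbrain. OTX2, a forebrain and midbrain factor, was at 215 and 212 TPM against 0.052, 0 and 0 TPM (log2 difference 7.72 ± 0.07 SE, adjusted p = 9e-18), with 309.7 TPM already in pgEpiSCs-Low. PAX5 was at 111 and 113 TPM against 0, 0.016 and 0 TPM (log2 difference 6.81 ± 0.11 SE, adjusted p = 1e-15). EN2, a homeodomain factor of the boundary region, was at 147 and 165 TPM and listed at 0 in MPC-Dif. LMX1A, a roof plate and midbrain factor, was at 112 and 113 TPM against 0.052, 0 and 0 TPM (log2 difference 6.80 ± 0.17 SE, adjusted p = 8.8e-14). LMX1B was at 104 and 108 TPM against 0.094, 0.09 and 0.113 TPM (log2 difference 6.60 ± 0.12 SE, adjusted p = 5.6e-15). EN2, PAX5 and LMX1B averaged at most 0.907 TPM in either group of pgEpiSCs, so their means at Day 8 were above those of the undifferentiated cells. FGF8 and FGF17, the growth factors secreted at that boundary, were at 43.5 and 40.2 TPM and 227 and 245 TPM and both were listed at 0 in MPC-Dif. GBX2, which lies on the hindbrain side, was lower than OTX2 on the same length-corrected scale, at 16.8 and 17 TPM, and was also listed at 0 in MPC-Dif.

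ZIC1 and ZIC4, zinc finger genes that mark the dorsal neural tube and also the dorsal somite, were higher. ZIC1 was at 1048 and 1094 TPM against 74.7, 77.2 and 75 TPM (log2 difference 3.81 ± 0.11 SE, adjusted p = 4.2e-13). ZIC4 was at 257 and 292 TPM against 2.68, 2.29 and 1.94 TPM (log2 difference 6.39 ± 0.12 SE, adjusted p = 5e-15). ZIC1 was therefore present in MPC-Dif too, at a higher level than ZIC4 on the length-corrected scale. SOX2, shared by pluripotent and neural progenitors, was at 85.4 and 93.4 TPM against 0, 0 and 0.05 TPM (log2 difference 6.47 ± 0.14 SE, adjusted p = 1.8e-14) and averaged 84, 74.5 and 118 TPM in pgEpiSCs-Low, pgEpiSCs-high and pgEpiSCs-MCs. All 21 neuronal genes tested were higher, with log2 differences from 1.26 (ISL1) to 5.90 (ELAVL3) and 6 listed at 0 in MPC-Dif. Of these, 14 were above 0.5 TPM in pgEpiSCs-MPCs alone, with little room to be lower, and the other 7 were above it in both groups. Among them was STMN2, a microtubule regulator of growing axons, at 78.2 and 71.2 TPM against 0.546, 0.327 and 0.492 TPM (log2 difference 5.70 ± 0.14 SE, adjusted p = 6.5e-14). TUBB3, the neuronal β-tubulin, was at 123 and 129.9 TPM against 5.43, 3.89 and 4.64 TPM (log2 difference 4.50 ± 0.11 SE, adjusted p = 9.6e-14), though TUBB3 averaged 267 TPM in pgEpiSCs-Low. The proneural factors NEUROG1 and NEUROD1 were lower in level, at 4.5 and 9.14 TPM and 5.42 and 3.99 TPM, and listed at 0 in MPC-Dif. Neural crest genes were divided, with 4 of 14 higher and 5 lower, or 3 lower without pgEpiSCs-MPCs replicate 1. EDNRB, the endothelin receptor of crest cells, was at 38.9 and 41.2 TPM against 0.067, 0.161 and 0.272 TPM (log2 difference 5.14 ± 0.18 SE, adjusted p = 2.7e-12). MITF, the melanocyte factor that also acts in lysosome control, was at 1.7 and 2.32 TPM against 41.8, 37.1 and 35.1 TPM (log2 difference -3.70 ± 0.19 SE, adjusted p = 1.5e-10).

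**Figure D3:**
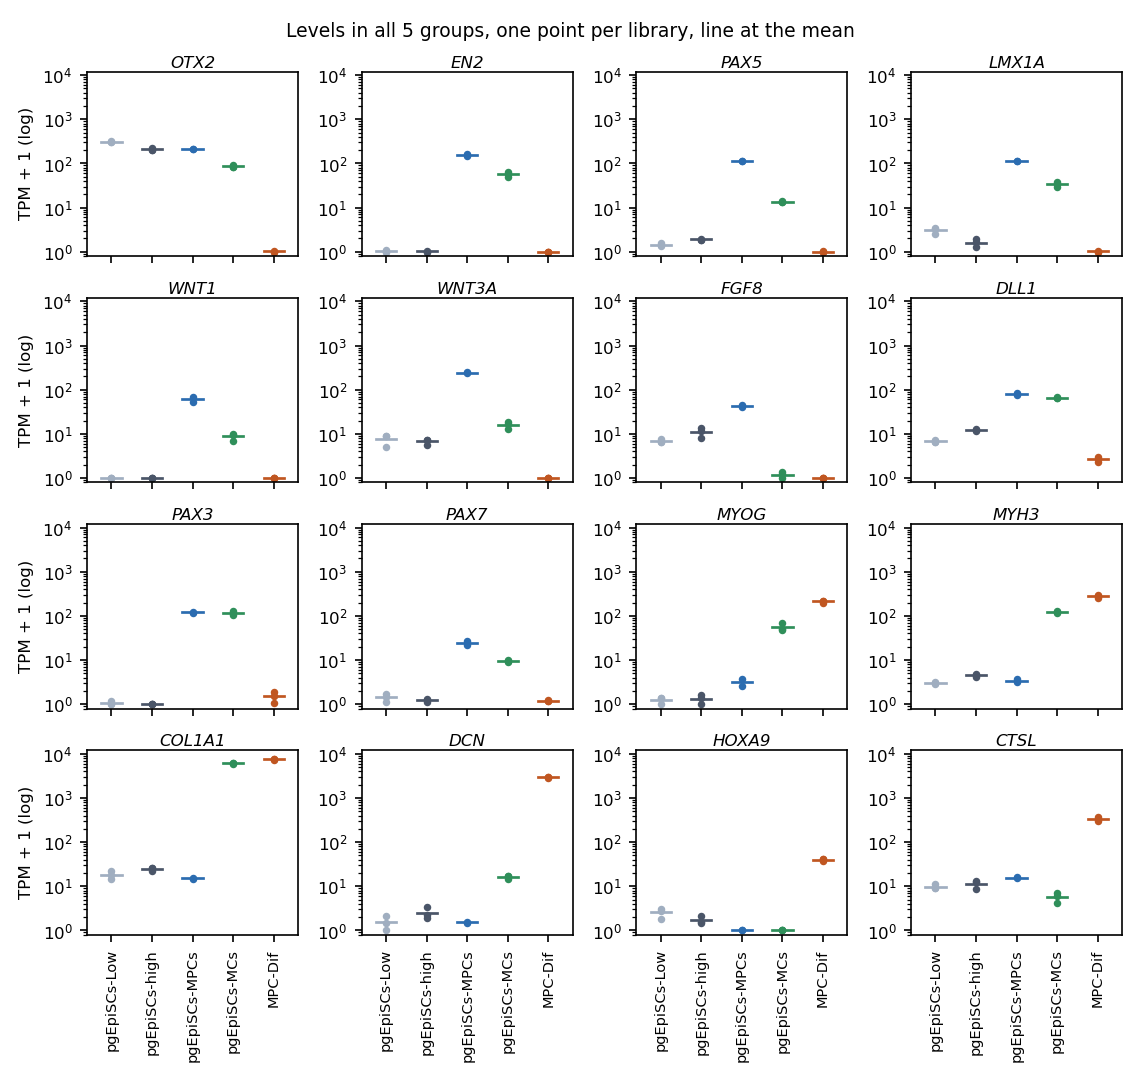
TPM + 1 on a log axis in all 5 groups for 16 genes, one point per library and a line at the group mean (n = 3, 3, 2, 3 and 3 from left to right). EN2, PAX5, LMX1A, WNT1, WNT3A and FGF8 are highest in pgEpiSCs-MPCs; MYOG, MYH3, COL1A1, DCN, HOXA9 and CTSL are highest in MPC-Dif.

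Wnt pathway genes were higher at Day 8 at the level of ligands, agonists and targets. Of 16 ligands tested, 12 were higher and WNT11 was lower, with a median of 1.15. No ligand passed as lower (0) when any 1 of pgEpiSCs-MPCs replicates 1 and 2 and MPC-Dif replicates 2 and 3 was left out, in a fit of the compared groups alone or with a filter at 2 TPM, under which WNT11 was not tested, and 2 were lower under quantile normalization. Over the 5 ligands above 0.5 TPM in both groups, 4 were higher. WNT3A was at 238 and 246 TPM and WNT1 at 52.4 and 68.8 TPM, both listed at 0 in MPC-Dif, and WNT8B was at 291 and 334 TPM against 0.104, 0 and 0.047 TPM (log2 difference 8.22 ± 0.17 SE, adjusted p = 1.2e-14). These 3 are ligands known from dorsal neural tissue. Of 17 target and feedback genes, 15 were higher, LGR5 was lower and the median was 3.38, and over the 9 above 0.5 TPM in both groups 8 were higher. AXIN2, the general feedback target of β-catenin, was at 168 and 179 TPM against 0.774, 0.624 and 0.698 TPM (log2 difference 6.68 ± 0.17 SE, adjusted p = 8e-14). LEF1, its DNA-binding partner, was at 39 and 42.2 TPM against 0.316, 0.227 and 0.178 TPM (log2 difference 5.07 ± 0.17 SE, adjusted p = 1.9e-12). RSPO3, which boosts Wnt reception, was at 411 and 415 TPM against 0.135, 0 and 0 TPM (log2 difference 8.63 ± 0.12 SE, adjusted p = 3.5e-16). The receptor FZD10 was at 654 and 704 TPM against 0, 0.195 and 0 TPM (log2 difference 9.32 ± 0.11 SE, adjusted p = 9.7e-17). The receptor LGR5, itself a target, was at 5.37 and 5.16 TPM against 18.3, 21.1 and 20.9 TPM (log2 difference -1.75 ± 0.17 SE, adjusted p = 2.4e-07). AXIN2 averaged 7.09 TPM in pgEpiSCs-Low and 76.9 TPM in pgEpiSCs-MCs, so the Day 8 level was the highest of the groups.

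Notch genes were nearly all higher, with 16 of 18 higher and a median of 2.05. Of the 18, 7 were above 0.5 TPM in pgEpiSCs-MPCs alone, with little room to be lower. Over the 11 above it in both groups, 9 were higher and 2 lower. The receptor NOTCH1 was at 79.9 and 94.1 TPM against 6.82, 3.63 and 5.76 TPM (log2 difference 3.81 ± 0.21 SE, adjusted p = 4e-10). NOTCH3 was at 89.8 and 107 TPM against 8.3, 8 and 9.19 TPM (log2 difference 3.38 ± 0.09 SE, adjusted p = 9.6e-14). The ligand JAG1 was at 156 and 165 TPM against 17.2, 14.9 and 16.4 TPM (log2 difference 3.23 ± 0.09 SE, adjusted p = 3.3e-13). HEY2 and HES1, which are targets, were the 2 genes lower, HES1 by a small margin at 40.8 and 33.2 TPM against 46.7, 46.5 and 53.6 TPM (log2 difference -0.40 ± 0.13 SE, adjusted p = 0.0146). HES1 no longer passed without pgEpiSCs-MPCs replicate 2 (log2 difference -0.25), without MPC-Dif replicate 3 (-0.33) or with mitochondrial genes left out (-0.25).

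In the TGF-β and BMP list 13 genes were higher and 12 lower with a median of 0.04. BMP7 was at 105 and 114 TPM and listed at 0 in MPC-Dif, and BMP4 was at 67.1 and 66.7 TPM against 8.52, 7.79 and 6.87 TPM (log2 difference 2.96 ± 0.12 SE, adjusted p = 1.6e-11). BAMBI, a decoy receptor induced by BMP and Wnt signals, was at 56.1 and 59.7 TPM against 0.38, 0.255 and 0.788 TPM (log2 difference 5.34 ± 0.14 SE, adjusted p = 1.4e-13). ID1, ID2, ID3 and ID4, targets of BMP signalling that hold back differentiation, were all higher, with log2 differences of 2.34, 2.33, 1.08 and 4.28. The ligand genes TGFB1, TGFB2, TGFB3, INHBA and INHBB were each lower, TGFB2, TGFB3 and INHBB with log2 differences of -3.63, -3.08 and -4.57. TGFB1 was at 1.05 and 0.637 TPM against 37, 38.7 and 45.2 TPM (log2 difference -4.49 ± 0.13 SE, adjusted p = 4.6e-13). INHBA was at 0 and 0.195 TPM against 27.2, 21.3 and 20.3 TPM (log2 difference -4.44 ± 0.24 SE, adjusted p = 3.2e-10). The TGF-β binding protein LTBP2 was at 1.65 and 1.93 TPM against 508, 465 and 467 TPM (log2 difference -7.43 ± 0.12 SE, adjusted p = 2e-15).

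Retinoic acid genes also divided, with 6 of 18 higher and 10 lower. The synthesis enzymes ALDH1A3 and ALDH1A1 were higher in MPC-Dif, ALDH1A3 at 0.228 and 0.172 TPM against 110.2, 96.7 and 88.7 TPM (log2 difference -6.37 ± 0.14 SE, adjusted p = 2e-14). The degrading enzymes CYP26A1 and CYP26C1 were higher at Day 8, CYP26A1 at 26 and 29.6 TPM against 0.825, 1.27 and 0.893 TPM (log2 difference 3.86 ± 0.27 SE, adjusted p = 7.2e-09), while the third of that family, CYP26B1, was lower (log2 difference -2.65). In the FGF list 12 of 24 genes were higher (50.0%, against 50.7% of all genes) and 7 were lower (29.2%, against 28.1%), shares near those of all genes. FGF2 had the lowest difference of the list, at 22.2 and 20.6 TPM against 239, 237 and 214 TPM (log2 difference -3.37 ± 0.13 SE, adjusted p = 8.2e-12). The receptor FGFR1 did not pass at 188 and 201 TPM against 206, 192 and 199 TPM. In the IGF list 8 of 11 were lower, led by the binding protein IGFBP4 at 4.76 and 4.23 TPM against 313, 284 and 299.6 TPM (log2 difference -5.77 ± 0.11 SE, adjusted p = 5e-15), while the receptor IGF1R was at 121 and 121 TPM against 83.5, 64.9 and 60.8 TPM (log2 difference 0.80 ± 0.12 SE, adjusted p = 2.5e-05).

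Hox genes were near 0 in the Day 8 libraries and measured in MPC-Dif. They lie in 4 clusters and give cells their position along the body axis, with low paralogue numbers used in the hindbrain and high ones in the posterior trunk. All 34 genes tested were lower, with log2 differences from -0.66 (HOXB13) to -5.46 (HOXB7) and a median of -2.99, and 18 of them were listed at 0 in both pgEpiSCs-MPCs libraries. The highest value of any of them in a Day 8 library was 0.461 TPM, of HOXA2, below the 0.5 TPM needed to be tested, while the lowest MPC-Dif mean was 0.664 TPM. They were thus tested only through groups other than pgEpiSCs-MPCs, and the count of 34 lower lends no support to a direction. Summed over the 9 HOXA genes, the level was 0.243 to 0.869 TPM in pgEpiSCs-MPCs and 136 to 152 TPM in MPC-Dif, and over the 8 HOXC genes 0.219 to 0.329 TPM against 69.2 to 76.9 TPM. HOXA9 was listed at 0 against 39.9, 39.5 and 37.3 TPM, HOXB7 was at 0.155 and 0 TPM against 50.0, 46.8 and 42.9 TPM, and HOXC8 at 0.156 and 0 TPM against 21.3, 24.1 and 19.4 TPM. Some Hox genes were measured in the starting cells, where pgEpiSCs-Low averaged 7.71 TPM of HOXB7 and 11.3 TPM of HOXC6. At Day 44 pgEpiSCs-MCs averaged 0.046 TPM of HOXB7, and HOXC6 was listed at 0 there.

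**Figure D4:**
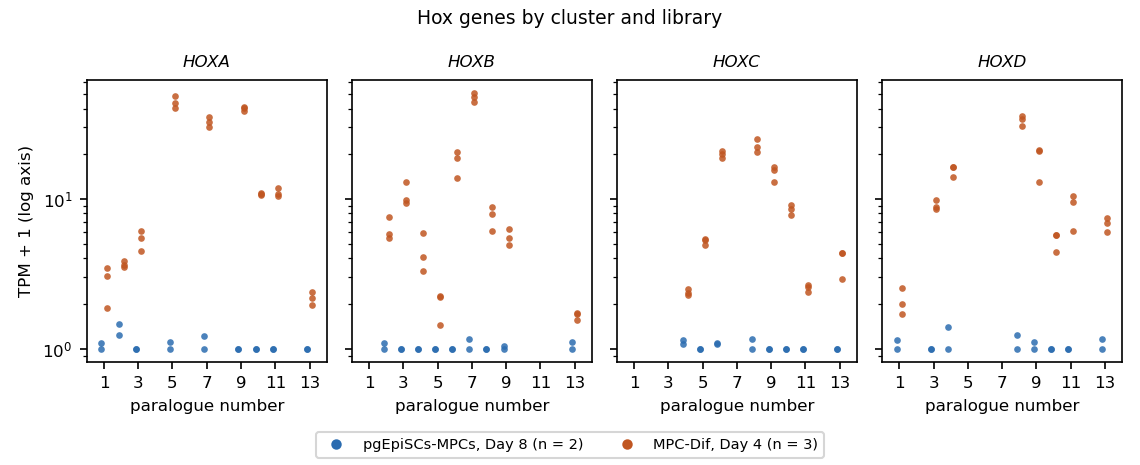
TPM + 1 on a log axis of 34 Hox genes by paralogue number in the 4 clusters, one point per library, for pgEpiSCs-MPCs (n = 2) and MPC-Dif (n = 3). No Day 8 library exceeds 0.461 TPM at any gene, and MPC-Dif means reach 46.5 TPM.

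DNA replication and mitosis genes were higher in pgEpiSCs-MPCs without exception. All 36 tested were higher, with a median of 3.85 and a range from 0.78 (TYMS) to 6.03 (UHRF1), and none overlapped. TOP2A, the topoisomerase of mitotic chromosomes, was at 848 and 745 TPM against 29.3, 22.3 and 18.3 TPM (log2 difference 5.06 ± 0.14 SE, adjusted p = 1.8e-13). PCNA, the replication clamp, was at 255 and 229 TPM against 25.9, 26.7 and 24.5 TPM (log2 difference 3.18 ± 0.07 SE, adjusted p = 3.7e-14). UHRF1, which copies DNA methylation, was at 556 and 580.4 TPM against 7.76, 8.27 and 7.11 TPM (log2 difference 6.03 ± 0.07 SE, adjusted p = 1.2e-16). These levels were already of that order in pgEpiSCs-Low, with means of 441 TPM of TOP2A and 106 TPM of PCNA. Of 12 cyclins and CDK inhibitors, 5 were higher and 4 lower with a median of 0.20. Under median-of-ratios scaling 2 were higher and 6 lower, and without pgEpiSCs-MPCs replicate 2 only 3 were higher, so no direction is given for the list. CDKN1A (p21) was at 115 and 118 TPM against 1344, 1384 and 1314 TPM (log2 difference -3.52 ± 0.09 SE, adjusted p = 6.8e-14). CDKN2B (p15) was at 0.254 and 0.446 TPM against 53.7, 49.2 and 56.2 TPM (log2 difference -5.32 ± 0.13 SE, adjusted p = 4.5e-14), whereas CDKN1B (p27) did not pass at 108 and 109 TPM against 134, 118 and 122 TPM.

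Fibroblast and extracellular matrix genes had the lowest medians of the lists. Of 20 fibroblast and fibro-adipogenic markers, 18 were lower with a median of -6.07, or 12 of the 13 above 0.5 TPM in both groups, and of 43 matrix glycoproteins and remodelling enzymes 39 were lower with a median of -4.42. DCN (decorin, a proteoglycan that binds collagen) was at 0.553 and 0.486 TPM against 2908, 2927 and 2957 TPM (log2 difference -10.91 ± 0.26 SE, adjusted p = 4.4e-14). ASPN (asporin) was at 0 and 0.068 TPM against 855, 914 and 879 TPM (log2 difference -9.74 ± 0.17 SE, adjusted p = 2.4e-15). PDGFRA, which defines fibro-adipogenic progenitors of muscle, was at 1.16 and 1.04 TPM against 286, 217 and 216 TPM (log2 difference -6.83 ± 0.17 SE, adjusted p = 7.1e-14). FAP, the fibroblast activation protein, was at 0.121 and 0 TPM against 418, 429.9 and 427 TPM (log2 difference -8.65 ± 0.26 SE, adjusted p = 5.7e-13). At Day 44 the 7 fibroblast markers summed to between 14700 and 16000 TPM in pgEpiSCs-MCs, with COL1A2 at a mean of 8213 TPM. The means of DCN, ASPN, PDGFRA and FAP there were 15.2, 0.897, 3.61 and 0.092 TPM. FN1 (fibronectin) was at 186 and 200.3 TPM against 7205, 6063 and 6074 TPM (log2 difference -5.05 ± 0.08 SE, adjusted p = 2e-15). ELN (elastin) was at 3.77 and 3.31 TPM against 145, 161 and 196 TPM (log2 difference -5.20 ± 0.14 SE, adjusted p = 1.8e-13).

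The collagens changed in both directions, 18 of 33 being lower and 11 higher. Of the 33, 8 were above 0.5 TPM in pgEpiSCs-MPCs alone, with little room to be lower. Over the 23 above it in both groups, 18 were lower and 3 higher. The fibrillar collagen COL1A1 was at 14.1 and 14 TPM against 7699, 7373 and 7713 TPM (log2 difference -8.98 ± 0.12 SE, adjusted p = 3.5e-16). COL6A3, of the microfibrils around muscle fibres, was at 1.01 and 0.42 TPM against 3189, 2706 and 2687 TPM (log2 difference -10.72 ± 0.27 SE, adjusted p = 9.6e-14). At Day 44 COL1A1 averaged 6077 TPM in pgEpiSCs-MCs, while COL6A3 averaged 68.6 TPM. COL2A1, the collagen of cartilage and notochord, went the other way at 327 and 354 TPM against 0.408, 0.196 and 0.522 TPM (log2 difference 7.96 ± 0.12 SE, adjusted p = 7.4e-16). The basement membrane collagens were split by chain. COL4A1 was at 109 and 117 TPM against 1172, 1190.1 and 1199 TPM (log2 difference -3.39 ± 0.10 SE, adjusted p = 3.5e-13) and COL4A2 was likewise lower (log2 difference -3.67), whereas COL4A5 was at 225 and 224 TPM against 0.314, 0.361 and 0.66 TPM (log2 difference 7.29 ± 0.11 SE, adjusted p = 7.9e-16). COL4A6 was at 176 and 188 TPM against 0.028, 0 and 0 TPM (log2 difference 7.50 ± 0.09 SE, adjusted p = 1.2e-16). Fibrillins showed the same kind of split, FBN1 at 53 and 54.3 TPM against 1231, 996 and 968 TPM (log2 difference -4.28 ± 0.10 SE, adjusted p = 3.5e-14). FBN2, the embryonic form, was at 144 and 148 TPM against 0.396, 0.235 and 0.238 TPM (log2 difference 6.83 ± 0.11 SE, adjusted p = 1.6e-15).

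**Figure D5:**
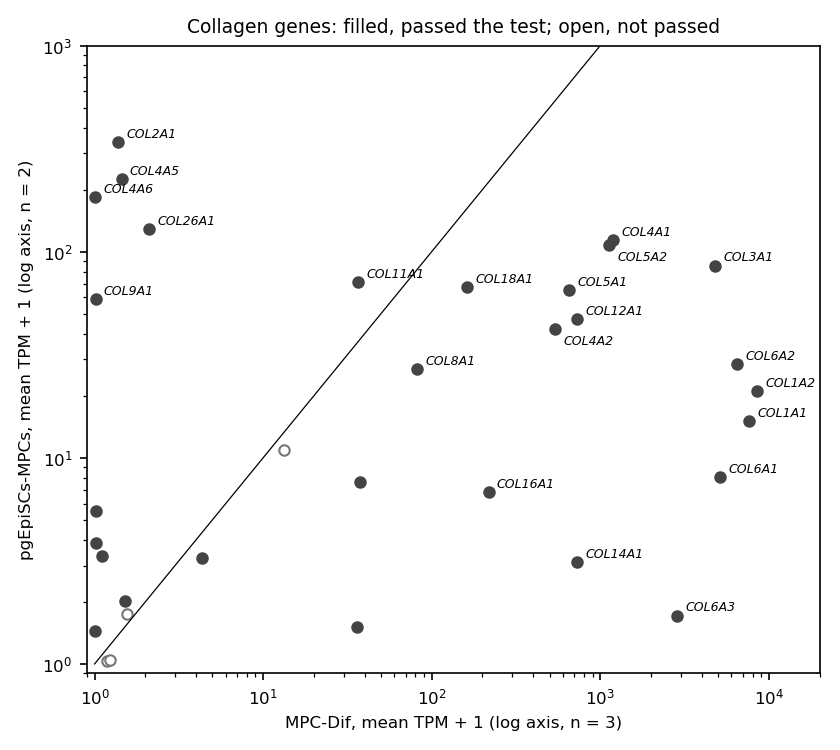
Mean TPM + 1 of 33 collagen genes in MPC-Dif (x axis, n = 3) and pgEpiSCs-MPCs (y axis, n = 2), both on log axes, with the line of equal level; filled points passed the limma test and open points did not. COL2A1, COL4A5, COL4A6, COL9A1 and COL26A1 lie far above the line, and COL1A1, COL1A2 and the COL6 genes far below it.

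Of 14 mesenchymal genes 11 were lower and 2 higher, with a median of -2.73, and only 1 was higher under median-of-ratios scaling, under quantile normalization or when pgEpiSCs-MPCs replicate 1 or 2 or MPC-Dif replicate 2 was left out. CDH2 (N-cadherin), a cell adhesion gene with the highest difference of that list, was at 1144 and 1174 TPM against 5.91, 5.3 and 4.79 TPM (log2 difference 7.52 ± 0.08 SE, adjusted p = 6.2e-17). CDH6, a cadherin of neural folds, was at 426 and 436 TPM against 0.122, 0.058 and 0.11 TPM (log2 difference 8.62 ± 0.12 SE, adjusted p = 3.5e-16). VIM (vimentin) was abundant in both groups but lower at Day 8, at 1636 and 1639 TPM against 9172, 9385 and 10104 TPM (log2 difference -2.54 ± 0.06 SE, adjusted p = 7.2e-14). Of 22 epithelial genes, 13 were higher (59.1%, against 50.7% of all genes) and 4 were lower with a median of 0.76, and 7 were lower under quantile normalization. Of the 22, 11 were above 0.5 TPM in pgEpiSCs-MPCs alone, with little room to be lower. Over the 6 above it in both groups, 2 were higher and 1 lower. DSP (desmoplakin, of desmosomes) was at 108 and 117 TPM and listed at 0 in MPC-Dif, and KRT8 at 35.3 and 34.3 TPM against 0.042, 0 and 0 TPM (log2 difference 5.14 ± 0.14 SE, adjusted p = 2.5e-13). EPCAM and CDH1, which define epithelium, were near 0, EPCAM at 0.523 and 1.07 TPM and listed at 0 in MPC-Dif, and CDH1 at 0.484 and 0.945 TPM against 0.481, 0.659 and 0.599 TPM, which did not pass. CDH1 averaged 26.6 TPM in pgEpiSCs-Low.

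Genes for lysosomes, antigen presentation, caveolae and the serum response were higher in the muscle-derived cells. All 20 lysosomal genes were lower at Day 8 with a median of -2.49. The proteases CTSL and CTSB, cathepsins L and B, were at 14.3 and 15.1 TPM against 369, 334 and 306 TPM (log2 difference -4.43 ± 0.20 SE, adjusted p = 4.5e-11) and 79.4 and 88 TPM against 1356, 1266 and 1313 TPM (log2 difference -3.96 ± 0.06 SE, adjusted p = 4.1e-16). GPNMB, a membrane glycoprotein of lysosome-rich cells, was at 0.501 and 0.636 TPM against 1211, 1183 and 1185 TPM (log2 difference -9.57 ± 0.17 SE, adjusted p = 2.8e-15). In the antigen presentation and interferon list 18 of 20 were lower with a median of -2.04. B2M, the light chain of class I molecules, was at 0.881 and 0.751 TPM against 86.2, 100.2 and 91.4 TPM (log2 difference -5.69 ± 0.11 SE, adjusted p = 7.1e-15), close to its mean of 0.65 TPM in pgEpiSCs-Low. Of 7 immune markers 3 were higher and 2 lower, with a median of 0.09, and 0 were higher under quantile normalization. CD14 and TYROBP, genes of myeloid cells, were the lower ones, with 20.5, 18.3 and 23.5 TPM and 5.7, 3.74 and 4.6 TPM in MPC-Dif, and CD68, CD79A and ITGAM were higher by 0.69, 0.72 and 0.55 on the log2 scale. Of 17 caveolar and annexin genes 15 were lower, among them CAVIN1 at 6.52 and 4.92 TPM against 522, 517 and 583 TPM (log2 difference -6.34 ± 0.18 SE, adjusted p = 4e-13) and the muscle caveolin CAV3, listed at 0 in both Day 8 libraries against 9.75, 8.53 and 8.58 TPM. Of 19 serum response and YAP targets 17 were lower with a median of -3.03, EGR1 at 2.62 and 4.36 TPM against 189, 171 and 167 TPM (log2 difference -5.32 ± 0.18 SE, adjusted p = 2.2e-12). CCN2 was at 89.1 and 113 TPM against 1129.7, 1150.4 and 1241 TPM (log2 difference -3.53 ± 0.12 SE, adjusted p = 1.8e-12). Of these groups MPC-Dif alone had serum in its medium, and its part in these differences cannot be told apart from that of the cells' origin.

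RNA-binding genes of early development were higher at Day 8. All 6 oncofetal genes tested were higher. Of the 6, 2 were above 0.5 TPM in pgEpiSCs-MPCs alone, with little room to be lower, and the 4 above it in both groups were all higher. LIN28B was at 113 and 118 TPM and LIN28A at 72.8 and 104 TPM, both listed at 0 in MPC-Dif. IGF2BP1 was at 238 and 267 TPM against 0.809, 0.775 and 1.46 TPM (log2 difference 6.99 ± 0.14 SE, adjusted p = 1e-14). LIN28A had averaged 1219 TPM in pgEpiSCs-Low and averaged 0.704 TPM in pgEpiSCs-MCs, which puts Day 8 between them, while LIN28B and IGF2BP1 had averaged 74.8 and 224 TPM in pgEpiSCs-Low. Of 18 pluripotency genes 10 were higher (55.6%, against 50.7% of all genes) and 2 lower, with a median of 0.94. Of the 18, 5 were above 0.5 TPM in pgEpiSCs-MPCs alone, with little room to be lower, and 6 in neither group. Over the 7 above it in both groups, 5 were higher and 2 lower. SOX2, OTX2, LIN28A and JARID2 were among the higher genes of the list. JARID2, a partner of the Polycomb complex, was at 49.4 and 53.9 TPM against 6.88, 5.94 and 7.43 TPM (log2 difference 2.77 ± 0.09 SE, adjusted p = 9e-13). The core pluripotency gene NANOG, with NODAL, PRDM14, DPPA4 and GDF3, was listed at 0 in all 5 libraries, and KLF4, which differentiated cells also use, was higher in MPC-Dif, at 0.885 and 0.957 TPM against 138, 132 and 141 TPM (log2 difference -6.17 ± 0.24 SE, adjusted p = 9.6e-12). Of 14 imprinted genes 9 were higher (64.3%, against 50.7% of all genes) and 4 were lower (28.6%, against 28.1%). Over the 12 above 0.5 TPM in both groups, 7 were higher and 4 lower, so no direction is given for the list. The growth regulator PEG3 was higher at 55.1 and 68.5 TPM against 3.42, 1.76 and 2.37 TPM (log2 difference 4.18 ± 0.17 SE, adjusted p = 1.3e-11). DIRAS3 was at 40.3 and 38.7 TPM against 0.705, 0.285 and 0.402 TPM (log2 difference 4.80 ± 0.22 SE, adjusted p = 5.4e-11). PHLDA2, a placental growth inhibitor, was lower at 1.07 and 0.708 TPM against 18.8, 15.8 and 24.6 TPM (log2 difference -3.44 ± 0.23 SE, adjusted p = 3.5e-09).

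Mitochondrially encoded RNA took a larger share of the Day 8 libraries. RNA of the 13 mitochondrially encoded proteins made up 17.1 and 15.8% of all TPM in pgEpiSCs-MPCs and 7.10, 6.95 and 6.74% in MPC-Dif (two-sided exact permutation p = 0.1, the smallest that 2 against 3 libraries can give). The shares did not overlap, and the pgEpiSCs lay higher still, between 19.8 and 24.9%. Of the 13 genes 12 were higher, ATP6 at 34345 and 30962 TPM against 8750.4, 8528 and 8147 TPM (log2 difference 1.94 ± 0.11 SE, adjusted p = 7.5e-10), while COX1 did not pass at 19406 and 18436 TPM against 18698, 18762 and 18537 TPM. Among glycolytic genes the isoforms differed in direction. HK2, the insulin-regulated hexokinase of muscle and growing cells, was at 101 and 168 TPM against 17.3, 14.5 and 14.1 TPM (log2 difference 3.02 ± 0.16 SE, adjusted p = 3.1e-10). HK1 was at 117 and 141 TPM against 395, 374 and 392 TPM (log2 difference -1.58 ± 0.08 SE, adjusted p = 9.3e-11). LDHB was higher and LDHA lower, with log2 differences of 1.81 and -0.85, and the LDHA and HK2 libraries of Day 8 stood apart from each other, LDHA at 145 and 236 TPM. The median of the 24 glycolytic genes, 0.41, became -0.02 under median-of-ratios scaling, so no direction is given for the list. Cytosolic ribosomal protein genes were lower at 47 of 54 with a median of -0.48, at 51 under median-of-ratios scaling and at 30 under quantile normalization. With the 100 most abundant genes left out 19 were lower, but that setting takes any of the 54 genes among those 100 out of the test.

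The levels of the other groups are set beside these differences as a description. The genes were picked by the difference between the compared groups, which favoured the group on the higher side. MPC-Dif could therefore not be highest among the genes higher, nor pgEpiSCs-MPCs among the genes lower. The same shares over all genes are not given here. Among the 1825 genes higher beyond a log2 difference of 2, pgEpiSCs-MPCs had the highest mean of all 5 groups at 1099 (60.2%) and pgEpiSCs-MCs at 433 (23.7%), and pgEpiSCs-Low or pgEpiSCs-high at the remaining 144 and 149. Among the 1213 genes lower beyond 2, MPC-Dif had the highest mean at 1076 (88.7%) and pgEpiSCs-MCs at 119 (9.81%).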

How the data were processed

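Poly-A RNA of pig cells was sequenced, and the authors aligned reads to Sscrofa11.1 with HISAT2, counted them over exons with featureCounts and deposited a table of TPM values, the only file used. Whether counting used strand is not given in the sources used here. Counts and read depth are not known, so count models were not used. Of 2209 identifiers without a symbol, 608 were named from a list of gene names by identifier or, where that gave none, through Ensembl links of the RefSeq annotation.

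TPM was transformed as log2(TPM + 1) and fitted with limma 3.58.1 (R 4.3.3), trended variance, all 5 groups sharing 1 spread estimate, with Benjamini-Hochberg adjustment over 14957 genes past 0.5 TPM in at least 50% of libraries of any group. The fit was tested on simulated data. Genes named are the 12 largest and 12 smallest differences with a symbol and no overlap, and members of 38 gene lists; a planned list of genes the study names was left out because most could not be traced to its text. Of 931 list genes, 789 were tested; those with no entry were not analysed here, and some genes named by these rules are not reported here. Members and lists were chosen with earlier results of these data known. The single share was tested by exact permutation. Python 3.11.15 read promoter windows from the RefSeq genome. Alternatives covered pseudocount, filter, scaling, omitted genes, model, replicate block and each library left out.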

Additional observations from a re-analysis of the deposited data

How the results depend on the processing

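Over 17 alternatives the number of genes higher in pgEpiSCs-MPCs ranged from 5856 to 8156 and the number lower from 3758 to 5653. Counts beyond a log2 difference of 2 stayed within 1.5 times of those reported, except that a pseudocount of 0.1 gave 2887 genes higher. Leaving out each library in turn gave 7020 to 7420 genes higher, 3848 to 4090 lower, 1800 to 1854 higher beyond 2 and 1197 to 1242 lower beyond 2. With 1 Day 8 library left, that library is assumed to vary like the other groups.

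Of 169 named genes, 154 kept their direction and their side of the threshold throughout. Under median-of-ratios scaling ATP2A2 turned to -0.34 and COX1 to -0.42, under quantile normalization COX1 turned to -0.66 and CDH1 to -0.41, and with mitochondrial genes left out FGFR1 turned to 0.12, so the directions of these genes are not known. Of 1292 counts over lists, 47 moved by over 1.5 times, among them the small counts of higher ribosomal protein genes and of lower ribosome biogenesis genes (14 of 27 under median-of-ratios scaling against 4).

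Libraries of the groups share replicate numbers, and the deviations of same-numbered libraries from their group means correlated at 0.02 and -0.08. The deviations of the 2 Day 8 libraries mirror each other, so these values cannot show whether the numbers pair libraries. The fit with the replicate number as a block gave 7460 genes higher and 4135 lower, 1829 and 1218 of them beyond 2. The difference in mitochondrial share, 9.52 percentage points, ranged from 8.87 to 10.2 when libraries were left out. Read depth is unknown, so values near 0 TPM carry an uncertainty that could not be given. A 0 can be a failed estimate, so no fold is printed against a group at 0, although fitted differences of such genes enter the ranking of the largest differences and the list medians.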

Other observations

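Some genes of anterior or neural identity had levels in the muscle-derived MPC-Dif libraries as well. PAX6, a factor of eye and neural tube, was at 25.8, 25.3 and 21.4 TPM in MPC-Dif against 45.9 and 49.7 TPM at Day 8 (log2 difference 0.96 ± 0.12 SE, adjusted p = 5e-06). EN1, a midbrain and dermomyotome factor, was at 13.9, 12.9 and 11.2 TPM against 32.5 and 32.1 TPM (log2 difference 1.29 ± 0.14 SE, adjusted p = 1.2e-06). These libraries did not overlap between the groups at either gene. ERG, an ETS factor of endothelium and cartilage, was at 51.4, 54.1 and 55.4 TPM in MPC-Dif against 0.683 and 0.901 TPM (log2 difference -4.93 ± 0.25 SE, adjusted p = 1.6e-10), while the endothelial marker CDH5 was at 1.49, 1.06 and 0.423 TPM there. ESRP1, a splicing regulator of epithelia, was at 12.2, 12.7 and 14.4 TPM in MPC-Dif against 0 and 0.04 TPM (log2 difference -3.79 ± 0.16 SE, adjusted p = 2.1e-11), while EPCAM was listed at 0 in MPC-Dif.

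Cholesterol genes changed in both directions. HMGCS1, an early enzyme of synthesis, was higher at Day 8, at 503 and 479 TPM against 203, 191 and 181 TPM (log2 difference 1.35 ± 0.09 SE, adjusted p = 2.2e-09). Of 20 genes of this list 6 were higher and 11 lower.

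Some values are hard to read as expression. GAPDH was at 0.896 and 0.492 TPM against 2.48, 2.01 and 2.75 TPM, and ALDOA at 0.702 and 0.729 TPM against 0.272, 0.208 and 0.049 TPM, although both are glycolytic genes that nearly every cell uses, so a value near 0 in this table need not mean that a gene is silent. CD74, a chaperone of antigen-presenting cells, was at 409 and 464 TPM against 702, 748 and 789 TPM in cells without an immune label. The span of CHRNB1 in the annotation overlaps that of ZBTB4, so its level of 33.5 and 37.4 TPM at Day 8 may include reads of both. Of 162 named genes with a RefSeq entry, 45 have spans that overlap another annotated gene, among them ASPN, WNT1, COL4A1, UHRF1 and FGF2, and their values carry the same limit. NOTCH1 is counted among the 45, but its chromosome is listed as unknown. Spans were matched by chromosome label, so its overlaps may join different sequences and need not be real.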
